A study of Homo sapiens with 7 samples.

Results

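The genes of heme synthesis were examined in MEG-01 cells, with and without knockdown of the RNA-binding protein RBM15. The set held 9 of the 62238 genes in the count data, mapped by symbol to Ensembl identifiers. They were picked by their known function, but with earlier results of these data known. They were the enzyme genes ALAS1, ALAS2, ALAD, UROS, UROD, CPOX, PPOX and FECH, and SLC25A37, the gene of the iron carrier mitoferrin. Another enzyme of the pathway is not analysed here. MEG-01 is an established human megakaryoblastic leukemia cell line. The RNA-seq held 3 libraries of growing cells, all labelled as carrying lentiviral transgenes and having the same passage number: 1 control library with no knockdown in its label, 1 of a line with knockdown by shRBM15#1 and 1 of a line with knockdown by shRBM15#2. The RIP-seq held 4 libraries of MEG-01 cells, 2 labelled normal IgG and 2 labelled with the anti-RBM15 antibody.

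The knockdown lines were stable, drug-selected cultures, so the 2 lines differ in their shRNA and may also differ in their history of selection. The control stands on 1 library, and its difference from other control cultures cannot be told apart from the knockdown. Counts on exon bins, the non-overlapping pieces into which the exons of a gene are divided, totalled 53230029 in the control, 41629454 in the shRBM15#1 line and 52458857 in the shRBM15#2 line. The reads that lay in no bin made up 21.6%, 30.4% and 21.9% of the reads of these libraries, with the largest share in the shRBM15#1 line. The RNA-seq libraries carried no strand information, so reads where genes overlap on opposite strands cannot be assigned by strand. Reads listed as ambiguous, which are not in the bin counts, made up 1.54%, 1.65% and 1.61% of the reads of the libraries in the same order.

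Heme is an iron-containing ring that is made partly in mitochondria and partly in the cytosol. The pathway begins with the joining of glycine and succinyl-CoA by 5-aminolevulinate synthase, which exists as a form found in most cells, encoded by ALAS1, and an erythroid form, encoded by ALAS2, and it ends with the insertion of iron by ferrochelatase. Red cell precursors make heme in large amounts for hemoglobin, whereas other cells need it for cytochromes and other enzymes.

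RBM15, the target of both shRNAs, had 3970 counts in the control, 1957 in the shRBM15#1 line and 2121 in the shRBM15#2 line. Both knockdown libraries were below the control, which is the direction of their labels. The log2 fold change was -0.93 (SE 0.23, edgeR adjusted p = 0.091), so RBM15 itself did not pass the limit of 0.01 set for the adjusted p. Across all genes, 86 of 24887 tested genes, those whose 3 counts summed to 30 or more, passed that limit, which is 0.346%. Of these, 17 were higher with the knockdown (0.0683% of the genes tested) and 69 were lower.

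Of the 9 heme synthesis genes, all of which were tested, 1 passed, ALAS2, and it was higher. At an unadjusted p under 0.05, a limit chosen after the data had been seen, 3 of 9 were higher (ALAS2, CPOX and SLC25A37) against 9.61% of all genes tested, and 1 of 9 was lower (PPOX) against 9.17%. Because the members were chosen with earlier results of these data known, the shares of all genes are given for description only. The median log2 fold change of the members was 0.04, and that of all genes was 0.017. In both lines 4 members were above the control and 2 were below it, against 39.7% and 39.5% of all genes tested, while ALAS1, UROS and FECH lay on different sides of the control in the 2 lines.

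**Figure D1:**
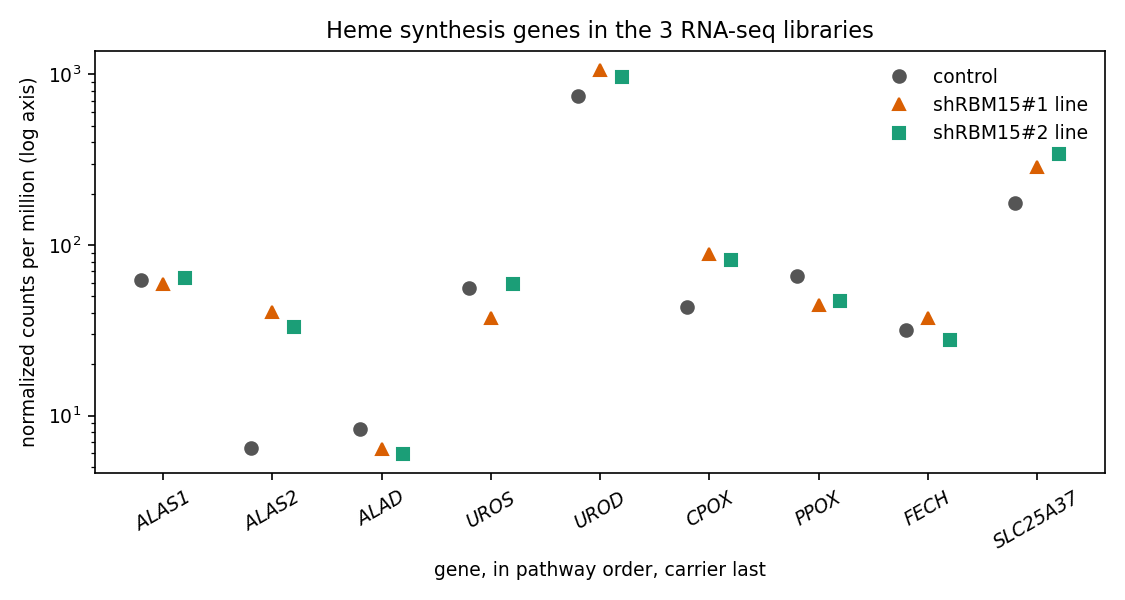
Counts scaled to 1000000 per library (CPM) after TMM normalization (log axis) of the 9 genes in the control, the shRBM15#1 line and the shRBM15#2 line, 1 point per library. ALAS2 went from 6.45 in the control to 40.4 and 33.1, while ALAS1 stayed between 59.4 and 63.8.

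The entry step of the pathway showed the largest difference among the members. ALAS2 (ENSG00000158578, GRCh37 chrX:55035488-55057497, minus strand) had 320 counts in the control, 1814 in the shRBM15#1 line and 1731 in the shRBM15#2 line. The knockdown libraries were close to each other and far above the control. The log2 fold change was 2.51 (SE 0.31, edgeR adjusted p = 0.0085), and the single lines gave 2.65 and 2.36. With a filter of at least 300 counts, under which 0 genes were called of 12994 tested by edgeR and 2938 had an unadjusted p under 0.05, the log2 fold change of ALAS2 was 2.66 and its adjusted p 0.029, so the call was lost. DESeq2 gave an adjusted p of 3.0e-10.

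ALAS1 (ENSG00000023330, GRCh37 chr3:52232102-52248343, plus strand), the form of the same enzyme found in most tissues, had 3080, 2663 and 3335 counts in the control, the shRBM15#1 line and the shRBM15#2 line. The libraries lay on both sides of the control after normalization, with log2 fold changes of -0.07 and 0.04. The fitted value was -0.01 (SE 0.23, adjusted p = 0.985), and its sign turned under scaling by total counts alone and with the filter of at least 300 counts. The balance of the 2 forms was therefore different in the knockdown libraries. ALAS2 made up 9.41% of the summed counts of both genes in the control (95% Wilson interval 8.48 to 10.4%), 40.5% in the shRBM15#1 line (39.1 to 42%) and 34.2% in the shRBM15#2 line (32.9 to 35.5%). The intervals did not overlap between the control and either line, and those of the 2 lines did not overlap each other either. They cover counting error only, and they are too narrow where a read was counted in more than 1 bin.

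The region upstream of the start of transcription was read for both forms and for CPOX, since ALAS2 and CPOX had the highest log2 fold changes of the members and ALAS1 was near 0. Promoters were taken from RefSeq sequences of GRCh38.p14, which held 9 entries for 7 of the members. UROS and SLC25A37 had no entry, so their promoters were not read. Capitals mark the letters AGATAA, its variant AGATAG, and also TGATAA with its variant TGATAG, on either strand, which are forms of the motif known to be bound by GATA factors, and each line gives the 250 bases before the start, 5′ to 3′ on the strand of the gene.
ALAS2, chrX:55030978-55031227, minus strand: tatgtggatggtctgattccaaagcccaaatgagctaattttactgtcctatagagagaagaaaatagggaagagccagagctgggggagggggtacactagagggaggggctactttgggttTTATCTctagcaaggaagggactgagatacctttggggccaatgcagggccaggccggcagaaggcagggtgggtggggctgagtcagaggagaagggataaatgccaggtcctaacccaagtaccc
CPOX, chr3:98593612-98593861, minus strand: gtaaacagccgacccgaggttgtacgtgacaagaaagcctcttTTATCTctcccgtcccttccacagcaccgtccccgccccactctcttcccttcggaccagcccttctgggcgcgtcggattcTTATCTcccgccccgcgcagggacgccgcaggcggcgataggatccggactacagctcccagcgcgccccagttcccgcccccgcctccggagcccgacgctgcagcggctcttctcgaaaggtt
ALAS1, chr3:52197833-52198082, plus strand: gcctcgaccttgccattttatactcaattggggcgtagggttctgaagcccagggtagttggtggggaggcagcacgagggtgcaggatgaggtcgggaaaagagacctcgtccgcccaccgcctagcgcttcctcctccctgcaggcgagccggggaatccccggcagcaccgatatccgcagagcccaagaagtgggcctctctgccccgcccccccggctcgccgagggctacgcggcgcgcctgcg
ALAS2 held 1 such match, beginning 127 bases before the start. CPOX held 2, at 207 and 125 bases before the start, and ALAS1 held 0. The entries of UROD and FECH, whose sequences are not printed, also held 0. Over all 35116 promoters of this length, 22.3% held at least 1 match. Among the 9 entries of the members 4 held a match, which were those of ALAS2 and CPOX and 1 of 2 entries each of ALAD and PPOX, so the match was found also upstream of members with lower counts in the knockdown libraries. The letters GGGCGG, known as a GC box, were found on either strand in 42.6% of all promoters. Of the 7 members with an entry, 6 held at least 1 in an entry, all but ALAS2. There were 3 matches upstream of CPOX, 2 upstream of ALAS1 and 0 upstream of ALAS2. A match is a description of the sequence alone.

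ALAD (ENSG00000148218), whose enzyme joins 2 molecules of 5-aminolevulinate into porphobilinogen, had 413 counts in the control, 284 in the shRBM15#1 line and 310 in the shRBM15#2 line. Its log2 fold change was -0.44 (SE 0.33, adjusted p = 0.504). The value was below the control in both lines, and the difference was not larger than the test could tell from the spread. ALAD had the lowest level per length of the 9 genes in every library.

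UROS (ENSG00000188690), whose enzyme closes the tetrapyrrole ring, had 2779, 1677 and 3107 counts in the control, the shRBM15#1 line and the shRBM15#2 line. The single lines gave log2 fold changes of -0.58 and 0.08, the widest gap between lines among the members. The fitted value was -0.21 (SE 0.30, adjusted p = 0.751). A difference between the lines could not be tested with 1 library each.

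UROD (ENSG00000126088), whose enzyme removes carboxyl groups from the ring, was the most abundant member, with 37076 counts in the control, 47666 in the shRBM15#1 line and 50645 in the shRBM15#2 line. Its log2 fold change was 0.44 (SE 0.23, adjusted p = 0.329). Both lines were above the control, at 0.51 and 0.37 on the log2 scale.

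CPOX (ENSG00000080819, GRCh37 chr3:98281168-98312567, minus strand), whose enzyme works between the mitochondrial membranes, had 2146 counts in the control, 3988 in the shRBM15#1 line and 4290 in the shRBM15#2 line. Both knockdown libraries were well above the control and near each other, at log2 values of 1.04 and 0.92. The fitted log2 fold change was 0.98 (SE 0.24, edgeR adjusted p = 0.088), which did not pass the limit. The adjusted p ranged from 0.039 with DESeq2 to 0.177 with no filter on low counts.

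PPOX (ENSG00000143224, GRCh37 chr1:161136200-161147803, plus strand), whose enzyme makes protoporphyrin, had 3258 counts in the control, 1989 in the shRBM15#1 line and 2457 in the shRBM15#2 line. It was below the control in both lines, by log2 values of -0.57 and -0.48, and the fitted value was -0.52 (SE 0.23, adjusted p = 0.264). PPOX and CPOX, which act on consecutive steps, thus had values on opposite sides of the control. Neither passed the limit. FECH (ENSG00000066926), whose enzyme inserts iron into the finished ring, had 1565, 1674 and 1447 counts in the 3 libraries, with log2 values of 0.24 in the shRBM15#1 line and -0.19 in the shRBM15#2 line and a fitted value of 0.04 (SE 0.28, adjusted p = 0.955). With no filter on low counts the fitted value was -0.10.

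SLC25A37 (ENSG00000147454), the gene of the carrier that brings iron into mitochondria, had 8746 counts in the control, 12822 in the shRBM15#1 line and 17765 in the shRBM15#2 line. Both lines were above the control, with log2 values of 0.70 and 0.95. The fitted log2 fold change was 0.83 (SE 0.24, edgeR adjusted p = 0.134), which did not pass the limit.

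**Figure D2:**
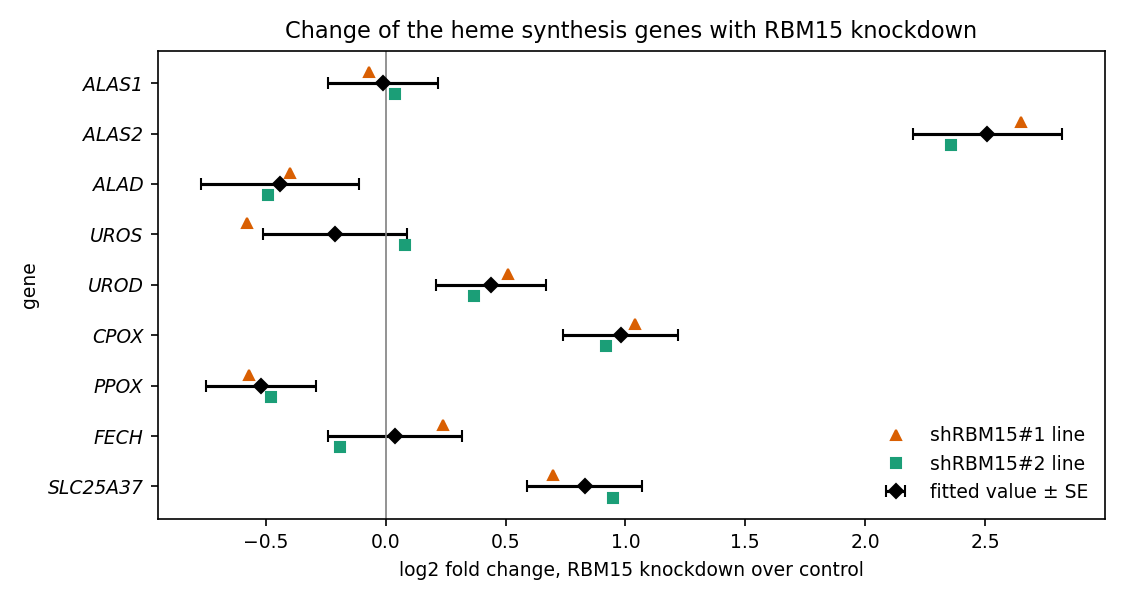
Log2 fold change of each gene, RBM15 knockdown over control, as fitted by edgeR (diamonds, bars give the SE) and in each knockdown line alone (triangles and squares). ALAS2 stands at 2.51 and CPOX and SLC25A37 at 0.98 and 0.83, while ALAS1, UROS and FECH have lines on both sides of 0.

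Levels were compared between genes per length, as CPM (counts scaled to 1000000 on bins per library) divided by the length of the bins in kilobases. In the control the order was UROD (240), SLC25A37 (30.8), ALAS1 (22.8), PPOX (13.3), UROS (12.8), CPOX (12), FECH (6.57), ALAS2 (2.82) and ALAD (1.5). PPOX, UROS and CPOX were close to each other, and with 1 control library no spread can be given for their order. In the shRBM15#1 line ALAS2 stood at 20.4 and in the shRBM15#2 line at 15.5 on this scale, which was rank 5 in both and rank 8 in the control. CPOX moved from rank 6 to rank 3 and rank 4, with levels of 28.6 and 24.4.

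These levels rest on sums of bin counts, and short bins weigh on them. Bin 003 of CPOX, which is 1 base long, held 105, 209 and 238 counts, so a read can be counted in more than 1 bin. Over bins of at least 100 bases only, an alternative chosen after the data had been seen, the control level of UROD was 90, that of UROS 3.59, that of PPOX 7.17 and that of ALAD 0.683 on the same scale. UROD stayed at rank 1 and ALAD at rank 9 in all 3 libraries, and ALAS2 again stood at rank 8 in the control and rank 5 in both lines. CPOX stood at rank 4 in all 3 libraries, so the difference in its rank was not found over these bins. UROS moved to rank 7 in the control, behind CPOX and PPOX at rank 5.

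The use of single exon bins was compared with that of the whole gene, which asks whether a part of a transcript changed apart from the rest. Of 234192 bins tested in 12893 genes, 3397 (1.45%) passed the limits of the study, which are a fold of over 1.2 with an unadjusted p of under 0.05, and 48 (0.0205%) had an adjusted p under 0.05. The members had 296 bins, of which 230 were tested. Of these, 5 (2.17%) were past the limits of the study, a share near that of all bins. At an adjusted p under 0.05, edgeR called 0 of the 230, and limma called 1, against 457 (0.195%) of all bins by limma.

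In ALAS2, 18 of 20 bins were tested. All 18 were above the control in both lines, with log2 values between 1.96 and 4.13 in the shRBM15#1 line and between 1.78 and 4.04 in the shRBM15#2 line. The highest was that of bin 010 (chrX:55046753-55046766, 14 coding bases), with 3, 55 and 60 counts. Relative to the gene, its log2 change was 1.70 (SE 0.79, edgeR adjusted p = 1), which was past the limits of the study, and it rested on 3 counts in the control. The bins not tested were bin 018 with 2, 7 and 7 counts and bin 020, the last, with 3, 6 and 2 counts. For CPOX, 14 of 15 tested bins were above the control in both lines. The exception was bin 010 (chr3:98309363-98309475, in a noncoding transcript of the gene), with 27, 31 and 23 counts and a relative log2 change of -0.94 (SE 0.46, edgeR adjusted p = 1).

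Bin 001 and bins 003 to 005 of CPOX, bin 001 of ALAS2 and 4 bins of PPOX overlap an exon of another gene, and their reads cannot be told apart from those of that gene. Without all such bins the log2 fold changes were 0.98 for CPOX, 2.51 for ALAS2 and -0.53 for PPOX. For PPOX, 36 of 39 tested bins were below the control in both lines and 1 was above it. The bin with the smallest p was bin 010 (chr1:161136288-161136300, 13 bases of UTR), with 24, 6 and 9 counts and a relative log2 change of -1.12 (SE 0.44, edgeR adjusted p = 1). For UROD, 44 of 47 tested bins were above the control in both lines. Its bin 013 (chr1:45478476-45478528, UTR) went the other way, with 74, 46 and 70 counts and a relative log2 change of -0.78 (SE 0.31, edgeR adjusted p = 1), past the limits of the study.

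SLC25A37 had the member bin with the smallest p. In 26 of its 30 tested bins both lines were above the control, and 2 bins, 001 and 009, were below it in both. Bin 001 (GRCh37 chr8:23386318-23386468, 151 bases at the 5′ end of the count models and outside the exons of this gene in GENCODE) had 50 counts in the control, 18 in the shRBM15#1 line and 28 in the shRBM15#2 line. It was thus lower while the gene as a whole had more counts. Its relative log2 change was -1.92 (SE 0.34, edgeR adjusted p = 0.06), and limma gave -1.89 with an adjusted p of 0.009. The adjoining bin 002 (11 bases of UTR) had 65, 38 and 69 counts and a relative log2 change of -1.10 (SE 0.29, edgeR adjusted p = 1), and both bins were past the limits of the study. Bin 006, a coding bin of 153 bases, had 553, 905 and 1318 counts. Bins 008 and 009, which lie in a noncoding transcript of the gene, had 13, 12 and 9 and 13, 11 and 13 counts, with relative log2 changes of -1.09 and -0.91 that were not past the limits. Bin 001 made up 0.572% of the counts of the gene in the control, 0.14% in the shRBM15#1 line and 0.158% in the shRBM15#2 line, so it bears little on the sum.

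**Figure D3:**
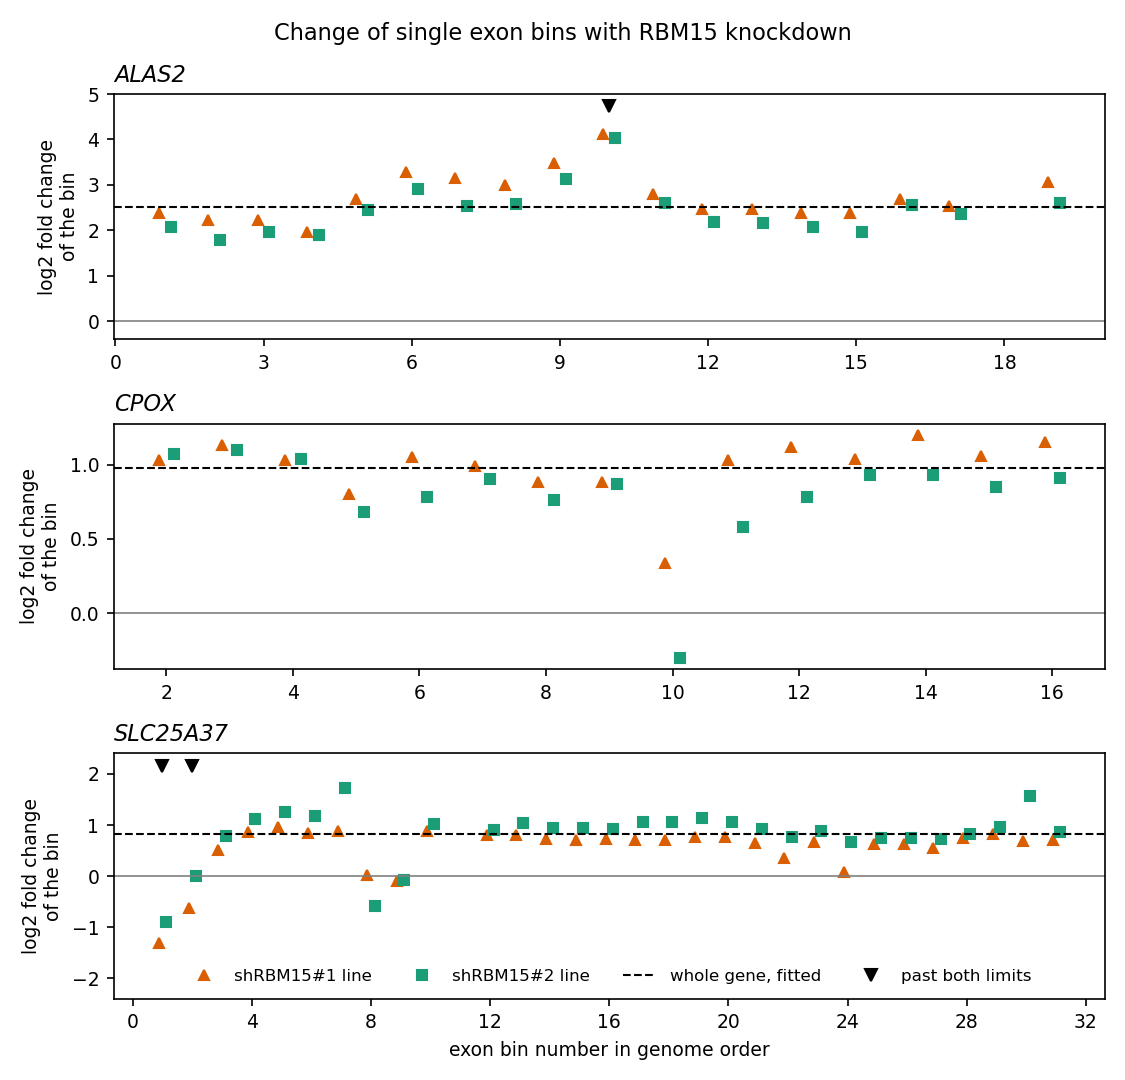
Log2 fold change over the control of each tested exon bin of ALAS2, CPOX and SLC25A37 in the shRBM15#1 line (triangles) and the shRBM15#2 line (squares), by bin number in genome order. Dashed lines give the fitted value of the whole gene, and black marks show bins past both limits of the study, which were bin 010 of ALAS2 and bins 001 and 002 of SLC25A37.

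In the remaining members the bins showed less. ALAD had 14 of 17 tested bins below the control in both lines, and its bin 015 (chr9:116153186-116153213, 28 coding bases) had 21, 7 and 4 counts and a relative log2 change of -1.31 (SE 0.49, edgeR adjusted p = 1), past the limits of the study. ALAS1, UROS and FECH had no bin past the limits. Their bins with the smallest p were bin 015 of ALAS1 (182, 194 and 268 counts, relative log2 change 0.38), bin 007 of UROS (6, 13 and 20 counts, 1.68) and bin 001 of FECH (84, 68 and 69 counts, -0.32).

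Genes around the pathway were read from lists, beginning with mitochondrial supply and transport. These lists and the marker lists below were also chosen with earlier results known, so shares of all genes beside them are description only. Over all genes DESeq2 called 525 of 24887 (2.11%), and at an unadjusted p under 0.05 edgeR had 9.61% higher and 9.17% lower. Of the 16 genes of supply and transport, edgeR called 0 and DESeq2 called 1, with 0 higher and 3 lower at an unadjusted p under 0.05 and a median log2 fold change of -0.23. SHMT2, a mitochondrial enzyme that makes glycine from serine, had 40602 counts in the control, 17131 in the shRBM15#1 line and 17110 in the shRBM15#2 line (log2 fold change -1.21, SE 0.22, adjusted p = 0.035). LONP1, a mitochondrial protease known to degrade ALAS1 protein, had 46195, 22774 and 28825 counts (log2 fold change -0.82, SE 0.22, adjusted p = 0.109). Neither passed the limit of 0.01, and 10 of the 16 genes were below the control in both lines, as were 39.5% of all genes tested.

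Among 16 genes of iron uptake, storage, sensing and iron-sulfur clusters, edgeR called 0 and DESeq2 called 1, with 3 higher and 0 lower at an unadjusted p under 0.05 and a median of 0.23. TFRC, the transferrin receptor that takes up iron, had 26020 counts in the control, 53830 in the shRBM15#1 line and 73762 in the shRBM15#2 line (log2 fold change 1.31, SE 0.24, adjusted p = 0.036). STEAP3, a reductase that prepares iron for transport out of endosomes, had 418, 875 and 903 counts (log2 fold change 1.12, SE 0.30, adjusted p = 0.115). Their values were above the control in both lines, as were those of SLC25A37, and none of the 3 passed the limit.

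Among 10 genes of heme export and degradation, edgeR called 0 and DESeq2 called 1, with 2 higher and 1 lower at an unadjusted p under 0.05 and a median of 0.18. HMOX1, the inducible heme oxygenase, had 160 counts in the control, 549 in the shRBM15#1 line and 533 in the shRBM15#2 line (log2 fold change 1.80, SE 0.36, adjusted p = 0.049), and SLC48A1, a heme transporter, had 3672, 2118 and 2767 (-0.56, SE 0.23, adjusted p = 0.24). Among 16 genes of heme sensing and erythroid regulation, edgeR and DESeq2 both called 0, with 2 higher and 2 lower at an unadjusted p under 0.05 and a median of 0.16. KLF1, an erythroid transcription factor, had 2585, 5183 and 4905 counts (log2 fold change 1.01, SE 0.25, adjusted p = 0.096), and STAT5B had 11023, 5300 and 7319 (-0.78, SE 0.23, adjusted p = 0.13). GATA1 had 3550, 2873 and 3446 counts in the control, the shRBM15#1 line and the shRBM15#2 line, with a log2 fold change of -0.14 (SE 0.22, adjusted p = 0.78). It is named for the promoter matches and was chosen after its values had been seen.

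Erythroid markers were read next. Of 17 genes 16 were tested and 5 passed, all higher in both lines (HBA2, HBE1, HBG1, HBG2 and HEMGN), and 13 were higher at an unadjusted p under 0.05. DESeq2 called 9 of the 16, all higher. In both lines 15 of the 16 were above the control, while HBD was below it in the shRBM15#1 line (log2 -0.10). The median log2 fold change of the 16 was 2.25. The summed CPM of the tested markers were 1679 in the control, 8343 in the shRBM15#1 line and 8221 in the shRBM15#2 line, and HBG2, a fetal globin gene, had the most counts in each library, with 35001, 158505 and 181989. Per length HBG2 led in the control, with a level of 451 against 386 for HBE1, an embryonic globin gene, while in the knockdown lines HBE1 led, with 4101 and 3446 against 2610 and 2378. Of the bins of HBG2, 10 of 11 are shared with another gene, as are 4 of 7 in HBE1 and 1 of 3 in HBG1. With the filter of at least 300 counts the calls of all 5 were lost (edgeR adjusted p = 0.018 for each), while the log2 fold changes were no smaller, at 4.08 for HBA2, 3.28 for HBE1, 2.35 for HBG1, 2.46 for HBG2 and 3.97 for HEMGN. Without shared bins those of HBG1 and HBG2 were lost (edgeR adjusted p = 0.107 and 0.069), with log2 fold changes of 3.92 and 2.38 against 2.21 and 2.31 with all bins. Under the other settings all 5 passed, with an adjusted p down to 1.4e-24 for HEMGN with DESeq2. HEMGN, a nuclear protein gene of red cell precursors, had 160, 2132 and 2290 counts. HBG1 and HBG2, and likewise HBA1 and HBA2, are near-identical copies, and the split of reads between them is uncertain. HBZ was near 0 in every library, with 1, 5 and 3 counts. In bulk RNA, a larger number of cells with erythroid transcripts and more such RNA per cell cannot be told apart, and the part of the erythroid markers in the values of ALAS2 was not tested.

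The markers were also used to read the label of the cells. Of 12 megakaryocyte markers 11 were matched and 9 tested, and 1 passed, TUBB1, with 52, 486 and 464 counts (log2 fold change 3.23, SE 0.42, adjusted p = 0.0099). This call was lost under scaling by total counts alone, with the filter of at least 300 counts and without shared bins (edgeR adjusted p = 0.012, 0.032 and 0.017), with log2 fold changes of 3.39, 3.38 and 3.79, and DESeq2 gave an adjusted p of 6.3e-10. ITGA2B, the most abundant, had 45463 counts in the control, 21287 in the shRBM15#1 line and 31658 in the shRBM15#2 line (log2 fold change -0.76, SE 0.24, adjusted p = 0.152), so a defining marker of the lineage was present in all 3 libraries. Other markers known from megakaryocytes and platelets differed among themselves. PF4 had 3, 4 and 2 counts and GP9 had 2, 2 and 5, which is near 0. PPBP had 118, 274 and 2968 counts, ITGB3 311, 803 and 2702, GP6 1015, 1034 and 2124, and SELP 454, 290 and 1501, with the most in the shRBM15#2 line. These 6 were chosen after their values had been seen. In both lines 6 of the 9 tested markers were above the control and 2 were below it. At an unadjusted p under 0.05, 4 were higher and 1 was lower, and the median log2 fold change was 0.94. The summed CPM of the tested markers were 962, 545 and 797, with ITGA2B as the most abundant gene in each library, by counts and per length.

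Of 9 myeloid markers 7 were tested and 1 passed, CTSG, with 4741 counts in the control, 167 in the shRBM15#1 line and 446 in the shRBM15#2 line (log2 fold change -3.96, SE 0.41, adjusted p = 0.0043), while the sum of the list was 147, 75.8 and 95.5 CPM. At an unadjusted p under 0.05, 4 of the 7 were higher (CD14, CSF1R, CSF3R and ITGAM, with log2 fold changes between 1.23 and 3.12, named after their values had been seen) and 1 was lower, CTSG, and the median was 1.23. By counts, the most abundant were CTSG in the control, ITGAM in the shRBM15#1 line and LYZ in the shRBM15#2 line. Per length, LYZ stood above ITGAM in the shRBM15#1 line also, with levels of 15.6 and 6.7. The call of CTSG was lost with the filter of at least 300 counts (log2 fold change -3.84, edgeR adjusted p = 0.029) and held under the other settings, where the adjusted p ranged down to 2.6e-31. The 5 lymphoid markers summed to 4.76, 5.35 and 4.46 CPM and the 4 stromal markers to 1.35, 6.98 and 3.25. The edgeR and DESeq2 tests called 0 of them, and at an unadjusted p under 0.05 1 lymphoid marker and 3 stromal markers were higher, with medians of 1.25 and 2.08. MS4A1 had 9, 61 and 47 counts and COL1A2 16, 90 and 51. Of the 5 lymphoid markers, 2 were above the control in both lines and 2 were below it. Those below were CD3D, with 157, 60 and 130 counts, and CD79A, with 47, 42 and 16, named after their values had been seen. Both lists stood at low levels in every library, and the shRBM15#1 line, which also had the most reads in no bin, had the highest sum in each. The part of these reads in the values of the heme genes was not tested.

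**Figure D4:**
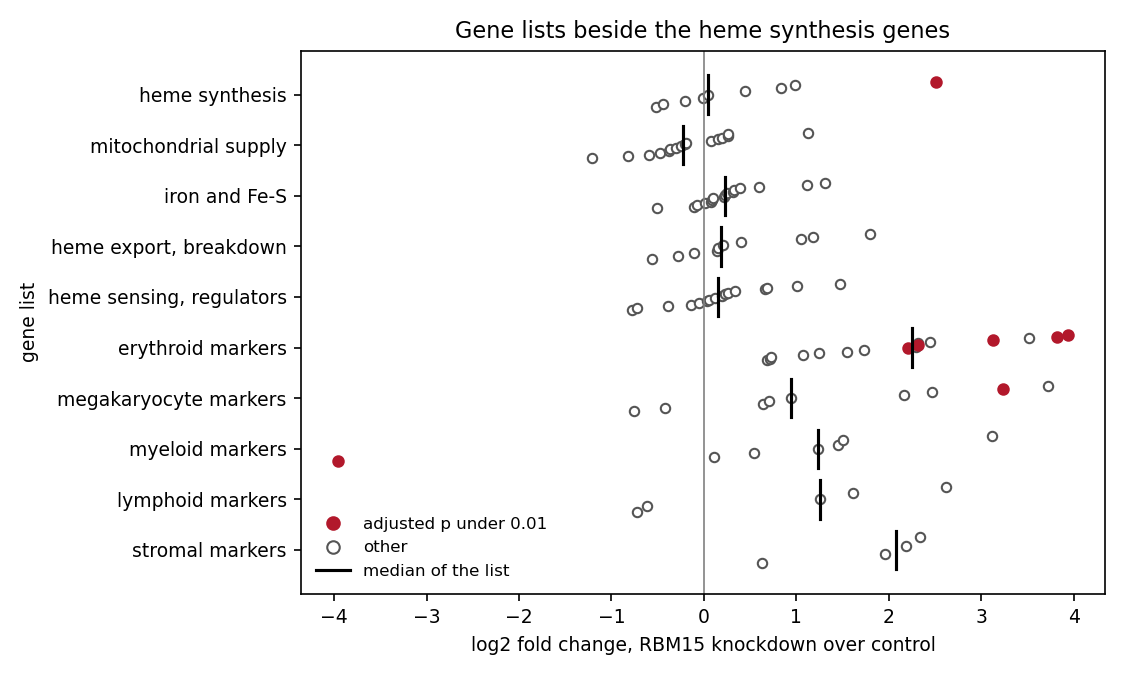
Log2 fold change, RBM15 knockdown over control, of every tested gene in each list. Filled points have an edgeR adjusted p under 0.01, open points do not, and bars give the median, which was 0.04 for the heme synthesis genes and 2.25 for the erythroid markers.

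The genes most like ALAS2 were sought by the distance between pairs of log2 fold changes, 1 for each knockdown line, among genes with at least 300 summed counts. The nearest 5 were HBA1 (distance 0.14), MX2 (0.18), CXCL11 (0.23), SLC40A1 (0.26) and TUBB2A (0.29). HBA1, an alpha globin gene, had 160 counts in the control, 827 in the shRBM15#1 line and 877 in the shRBM15#2 line. SLC40A1, the iron exporter ferroportin, had 408, 2681 and 1986 counts. The other genes of the 5 were MX2 with 32, 208 and 180 counts, CXCL11 with 44, 237 and 207, and TUBB2A with 282, 1307 and 1485. MX2, CXCL11 and TUBB2A were not on any of the lists read here, and MX2 and CXCL11 had few counts in the control. The measure rests on 3 libraries that share 1 control, and it describes likeness of change only.

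RBM15 binding to these transcripts was read from the list of 1515 RIP-seq sites that had passed the filter of the authors. That filter asked for more reads with the anti-RBM15 antibody once the size of each library had been allowed for. The listed counts are raw, and whole-library totals were not analysed here. The libraries labelled normal IgG summed to 28387 counts in replicate 1 and 610915 in replicate 2 over the listed sites, and those labelled anti-RBM15 to 28845 in replicate 1 and 807871 in replicate 2. The sums were thus low in 1 library and high in 1 library of each label, along the replicate number. Libraries of different size and an exchange of labels between normal IgG replicate 2 and anti-RBM15 replicate 1 cannot be told apart here, and no direction between antibodies was drawn.

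By gene symbol, 0 of the 1515 sites lay in the 9 members. Among the 24054 symbols of the tested genes, 908 had at least 1 listed site, which is 3.77%. By position, 1 site lay within the span of the CPOX bins, at GRCh37 chr3:98295917-98296332 (416 bases, listed as intergenic). It overlapped no exon bin and stood 1958 bases beyond the 3′ end of CPOX in GENCODE. Its counts were 5 and 90 in the libraries labelled normal IgG and 3 and 146 in those labelled anti-RBM15. Within 10 kb there were 2 more, an intronic site of APEX2 at 7743 bases from ALAS2 and a 3′ UTR site of UFC1 at 7619 bases from the nearest bin of PPOX. The list holds only sites past a filter, so sites below it were not seen. Of the 16 genes of heme sensing and erythroid regulation, 4 had a listed site by symbol (GATA1 with 2 sites, TAL1, STAT5A and STAT5B with 1 each), as did 3 of the 16 genes of mitochondrial supply and transport (CLPP, LONP1 and SHMT2). In the iron list 1 of 16 had a site (ACO1), among the genes of heme export and degradation 1 of 10 (PGRMC1) and among the erythroid markers 1 of 17 (ANK1). Of the megakaryocyte, myeloid, lymphoid and stromal markers, 0 of 12, 0 of 9, 0 of 5 and 0 of 4 had a site.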

How the data were processed

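Raw counts per exon bin of Ensembl GRCh37 models were deposited by the authors, 1 table per RNA-seq library, from unstranded paired-end reads aligned with STAR. HTSeq 0.6.0 was among the programs named, with no statement of its role. The deposited RIP-seq list gives raw counts in significant peaks, and the deposited exon table gives positions of bins. Fold changes and p-values of the authors' own comparisons in both tables were not used, nor were 5 further per-sample columns. Lines that name no gene held 23.2%, 32% and 23.5% of reads and were left out.

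Bin counts were summed per gene and tested with edgeR 4.0.16 in R 4.3.3 (TMM factors 0.931, 1.08 and 0.996, quasi-likelihood test, summed count of at least 30, Benjamini-Hochberg adjustment, limit 0.01). Bins were tested with diffSpliceDGE. Alternatives used limma 3.58.1 and DESeq2 1.42.0. The scripts were tested on simulated data. The p-values use only the spread between 2 knockdown lines. Symbols and exons came from GENCODE lifted to GRCh37. The members and lists were chosen with earlier results of these data known. Named genes were all members, their bins past the limits or with the smallest p, RBM15, for each list the genes past 0.01 or otherwise those with the smallest p, the erythroid and megakaryocyte marker with the most counts, and the 5 genes nearest to ALAS2. Genes of a list with a RIP-seq site were also named.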

Additional observations from a re-analysis of the deposited data

How the results depend on the processing

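Among 145 values recomputed under alternatives, the count of genes called, 86, was 191 with size factors, 801 with no filter, 0 with at least 300 counts and 525 with DESeq2. With at least 300 counts the number of members called was 0, since ALAS2 had a log2 fold change of 2.66 and an adjusted p of 0.029. The calls of 5 erythroid markers, TUBB1 and CTSG were lost too. The cause was not tested. Under the other fits ALAS2 lay between 2.37 and 2.67, and in single lines between 2.36 and 2.65. Scaling by total counts alone moved the median over all genes from 0.017 to 0.17 on the log2 scale, and ALAS2 to 2.67; with no filter the median was 0.435 over 53542 genes. Members that were not called turned sign: ALAS1 to 0.14 with total counts and 0.13 with at least 300 counts, FECH to -0.10 with no filter. In single lines ALAS1 ranged from -0.07 to 0.04, UROS from -0.58 to 0.08 and FECH from -0.19 to 0.24.

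Exon bins past the limits, 3397 in all, numbered 8728 with a count of at least 1, 736 with at least 300 and 10086 with limma. Member bins past them, 5 in all, were 8 with limma. With at least 300 counts the number was 0 of 112 member bins tested by edgeR, and none of the 5 bins was among these, since each had fewer counts. Bin 010 of ALAS2 was no longer past them with limma (relative log2 change 1.66). Over bins of at least 100 bases, the control levels per length moved from 240 to 90 for UROD, 12.8 to 3.59 for UROS, 13.3 to 7.17 for PPOX, 1.5 to 0.683 for ALAD, 12 to 9.42 for CPOX, 6.57 to 5.37 for FECH and 30.8 to 23.7 for SLC25A37, and that of PPOX was 14.2 over the length of bins with a read. RIP-seq sites in members went from 0 by symbol to 1 by position and 3 within 10 kb. No paired analysis was possible because there was 1 control library. With 1 control, and with few counts in bins such as bin 010 of ALAS2, the depth limits what single bins can show.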
